A study of Mus musculus with 18 samples.

Results

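In induced C10 cells, 189 of the 12361722 bins of 200 bp on mouse chromosomes 1 to 19 held C/EBPβ at 48 h post-induction (hpi) and few reads of C/EBPα in each of 8 libraries from 0 to 48 hpi. The bins were chosen by their reads: 18 or more C/EBPβ reads at 48 hpi from at least 8 raw reads, and 4 or fewer C/EBPα reads in all 8 libraries, with each library scaled to 10000000 reads. Reads on this scale are called normalized reads, and all levels below are given in them. They are called low-C/EBPα bins here, since the rule limits C/EBPα and does not require its absence. The 189 bins made up 1.43% (exact 95% interval 1.24% to 1.65%) of the 13188 C/EBPβ bins found at 48 hpi, whereas 4265 of those bins (32.3%) met the same minimum for C/EBPα at 48 hpi and are called shared bins here. C10 cells are a line of mouse pre-B cells (HAFTL-derived) that carries C/EBPα fused to the estrogen receptor hormone-binding domain and a GFP reporter, which becomes active once β-estradiol (β-Est) is added, and conversion to a macrophage state follows. All libraries came from this line. Induced cells received β-Est (100 nM by the sample labels, 100 µM by the methods of the study) with IL-3 and CSF-1, and control cells received ethanol, the solvent. C/EBPα was profiled at 0 hpi, at 10, 30 and 60 min and at 3, 12, 24 and 48 hpi. The other two factors, C/EBPβ and PU.1, were profiled at 0, 3, 12, 24 and 48 hpi, with 1 library per factor and time point. Since no library had a replicate, no test between libraries was possible, and the exact 95% intervals given for shares (Clopper-Pearson) and mean reads (Poisson) cover counting error only. Neither gene expression nor an input library was analysed here, so the identity of the cells could not be checked against marker genes.

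C/EBPα and C/EBPβ are leucine-zipper factors whose DNA-binding regions are nearly alike, and as dimers with themselves or with each other they recognize the same palindromic consensus. C/EBPβ also pairs with factors of the ATF family, such as ATF4, on a composite site that joins parts of a C/EBP and a cyclic AMP response element, and such pairs are known from the stress response and from macrophages. In the myeloid lineage, C/EBPα acts early, and the study proposes that C/EBPβ fills its place in fully mature cells such as macrophages. PU.1, an ETS factor, is required for macrophage development and occupies many of the same enhancers. Bins with C/EBPβ and little C/EBPα are therefore of interest for what the related factors do not share.

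The sequences of the 6 sites with the most C/EBPβ at 48 hpi are shown first because they display the range of words found in the bins. Each is the plus strand of build mm9, and capitals mark matches to the C/EBP consensus TTGCNNAA or to the C/EBP-ATF composite TGATGNAA, in which N is any base, on either strand. They are named by the protein-coding gene with the nearest transcription start site (TSS), which does not show that the site acts on that gene. The 6 bins lie, in this order, at chr8:13160801-13161000, chr5:81550001-81550200, chr6:123216401-123216600, chr9:48275001-48275200, chr4:48345401-48345600 and chr11:33579801-33580000.
Lamp1: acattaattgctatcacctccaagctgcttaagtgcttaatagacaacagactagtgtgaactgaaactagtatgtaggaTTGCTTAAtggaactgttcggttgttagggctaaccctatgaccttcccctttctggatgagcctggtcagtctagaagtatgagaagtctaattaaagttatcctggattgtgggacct
Lphn3: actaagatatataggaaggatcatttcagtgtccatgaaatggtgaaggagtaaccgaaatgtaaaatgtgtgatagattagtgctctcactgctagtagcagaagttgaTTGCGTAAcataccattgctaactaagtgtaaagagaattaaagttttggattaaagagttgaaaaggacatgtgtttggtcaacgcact
Clec4d: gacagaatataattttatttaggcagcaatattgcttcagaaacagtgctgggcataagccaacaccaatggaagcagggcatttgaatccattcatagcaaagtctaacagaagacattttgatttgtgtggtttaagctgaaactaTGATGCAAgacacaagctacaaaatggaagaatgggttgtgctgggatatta
Rexo2: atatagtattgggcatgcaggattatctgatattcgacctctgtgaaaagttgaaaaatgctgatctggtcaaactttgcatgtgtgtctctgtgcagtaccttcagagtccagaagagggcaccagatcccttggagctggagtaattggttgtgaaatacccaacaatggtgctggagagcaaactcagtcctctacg
Invs: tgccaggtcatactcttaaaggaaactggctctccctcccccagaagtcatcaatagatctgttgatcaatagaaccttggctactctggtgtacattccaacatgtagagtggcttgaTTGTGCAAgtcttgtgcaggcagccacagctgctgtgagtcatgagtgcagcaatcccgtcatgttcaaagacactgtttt
D130052B06Rik: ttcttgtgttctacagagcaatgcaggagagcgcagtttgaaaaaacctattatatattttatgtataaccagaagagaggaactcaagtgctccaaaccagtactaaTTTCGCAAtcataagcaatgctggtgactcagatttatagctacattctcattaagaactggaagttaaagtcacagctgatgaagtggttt
The C/EBP consensus occurred in the bins near *Lamp1*, *Lphn3*, *Invs* and *D130052B06Rik*, the composite in the bin near *Clec4d*, and neither in the bin near *Rexo2*. In the last bin, 22 of the 24 C/EBPβ reads at 48 hpi lay on the plus strand and 2 on the minus strand. Uneven strands were not limited to it: of the 23 reads in the bin near *Invs*, 4 lay on the plus strand and 19 on the minus strand.

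By the choice of the bins C/EBPα was low, and most bins lay near the C/EBPβ minimum. Between 10 and 27 raw C/EBPβ reads lay in a bin at 48 hpi, with a median of 11. The C/EBPβ library at 48 hpi held 5075832 reads, so 10 raw reads, the fewest that passed, equal 19.7 normalized reads. As many as 72 bins stood at this count, and 140 bins with as little C/EBPα stood just outside at 9 raw reads (17.7 normalized reads). On the C/EBPα side, the highest library of a bin reached at most 3.95 normalized reads, 106 bins had a highest value of 3.5 or more, and the lowest value just outside was 4.09. The C/EBPα maximum allowed from 2 raw reads in the library at 12 hpi to 9 in the library at 10 min, so that a weak C/EBPα signal in a single bin was not detectable at this depth. Most of the genome met it: 91.9% of all bins had 4 or fewer normalized C/EBPα reads in all 8 libraries.

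Of the C/EBPβ bins, 2147 (16.3%) had 4 or fewer normalized C/EBPα reads at 48 hpi, and 189 of these (8.80%) stayed at or under 4 at every other time as well. C/EBPα exceeded 4 at 3 hpi in 74.5% of the 2147 bins, at 12 hpi in 56.7%, at 60 min in 48.7% and at 24 hpi in 45.1%. The share was 34.9% at 0 hpi, before induction, 39.1% at 30 min and 19.7% at 10 min. The 189 bins are thus those in which C/EBPα was at or under 4 at all 8 times.

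In the C/EBPα libraries the mean over the 189 bins was 1.46 normalized reads (1.28 to 1.65) at 0 hpi, 1.29 at 10 min, 1.26 at 30 min, 1.52 at 60 min, 2.07 at 3 hpi, 1.81 at 12 hpi, 1.83 at 24 hpi and 2.20 (1.97 to 2.45) at 48 hpi. These values describe the choice of the bins. A bin of the genome held 0.789 reads on average at 48 hpi, so that the chosen bins lay above the mean of all bins in every C/EBPα library. The shared bins, by the same measure, held 39.9 reads at 48 hpi.

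The C/EBPβ libraries at 0, 3, 12 and 24 hpi had no part in the choice. Comparisons with the shared bins still depend on it, since C/EBPα was capped in the 189 bins and required in the shared bins. The levels within the 189 bins are not independent of the choice either. C/EBPα, which recognizes the same consensus, was capped at these times too, and C/EBPβ was required at 48 hpi. The mean was higher at each later time, from 2.06 normalized reads (1.76 to 2.40) at 0 hpi to 2.67 (2.37 to 2.99) at 3 hpi, 4.63 (4.08 to 5.23) at 12 hpi and 8.35 (7.63 to 9.12) at 24 hpi, and stood at 23.9 at 48 hpi, the value that the bins were chosen by. The intervals at 12 and 24 hpi did not overlap with each other or with those of the earlier times, whereas those at 0 and 3 hpi overlapped. The level at 24 hpi was 4.05-fold that at 0 hpi (log2 ratio 2.02, 1.76 to 2.28), against 5.16-fold in the shared bins. At 3 hpi the 2 sets stood further apart, with a log2 ratio over 0 hpi of 0.37 (0.09 to 0.66) in the 189 bins and of 1.40 (1.38 to 1.43) in the shared bins. The assay does not tell more C/EBPβ per cell from more cells with C/EBPβ at the site.

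**Figure D1:**
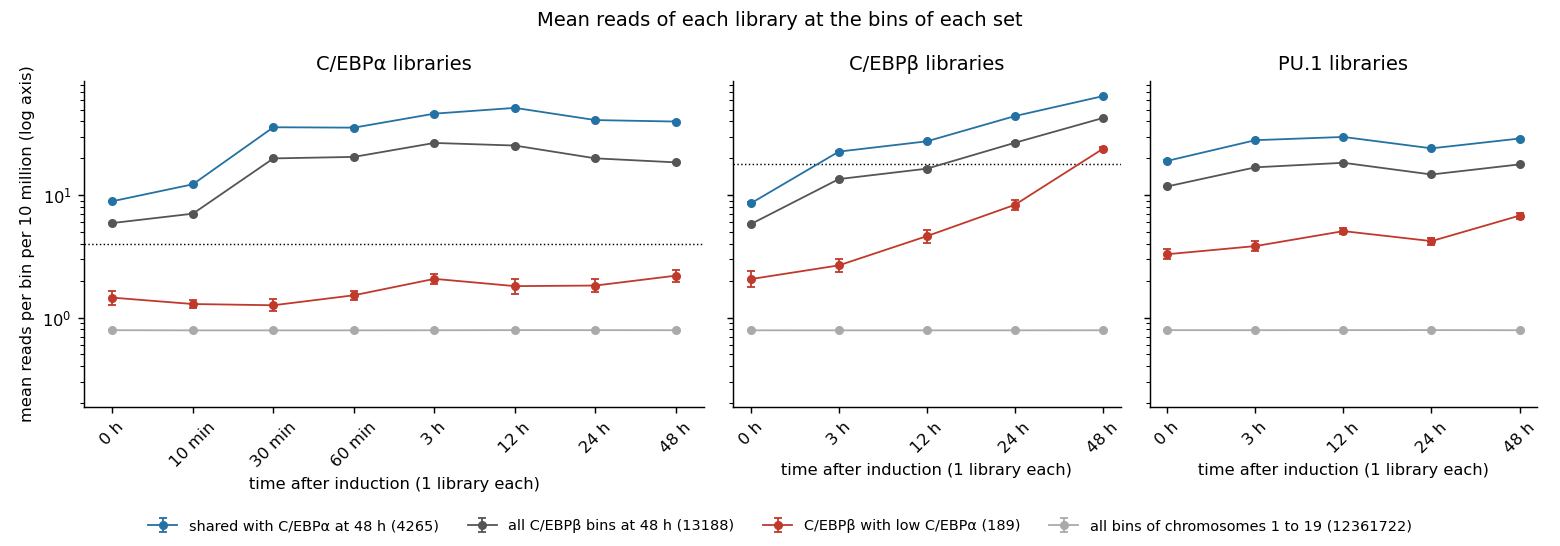
Mean normalized reads per 200-bp bin (reads of a library scaled to 10000000, log axis) in each of the 18 libraries, by factor and time, for the 189 low-C/EBPα bins (red), the shared bins (blue), all C/EBPβ bins at 48 hpi (dark gray) and all bins (light gray); vertical lines are exact 95% Poisson intervals and dotted lines the limits of 4 for C/EBPα and 18 for C/EBPβ at 48 hpi. The red C/EBPβ series rises from 2.06 at 0 hpi to 8.35 at 24 hpi, below the other C/EBPβ sets at every time.

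A bin was called in a library when it held 8 or more normalized reads and 4 or more raw reads. In the small C/EBPβ libraries at 12 and 24 hpi the raw minimum decided, since 4 reads equal 13.8 and 12.8 normalized reads. By this measure C/EBPβ was called at 24 hpi in 54 of the 189 bins (28.6%, 22.2% to 35.6%), against 0.218% of all bins. At 12 hpi it was called in 15 bins (7.94%) against 0.130% of all bins, at 3 hpi in 6 (3.17%) against 0.257%, and at 0 hpi in 2 (1.06%, 0.13% to 3.77%) against 0.270%. The exact intervals at 3 hpi (1.17% to 6.78%), 12 hpi (4.51% to 12.8%) and 24 hpi thus lay above the share of all bins, and that at 0 hpi included it. In 121 bins C/EBPβ was called at none of the 4 earlier times, in 46 at 24 hpi alone and in 11 at 12 hpi alone. These patterns were not counted over all bins. Since 0.130% to 0.270% of all bins were called at each time, most of the genome was called at none of them either.

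Shared bins were called earlier and more often: 29.5% at 0 hpi, 74.5% at 3 hpi, 72.6% at 12 hpi and 93.5% at 24 hpi. Their C/EBPβ signal at 48 hpi was also stronger, with a mean of 64.4 normalized reads. Among bins of like strength (18 to 27 normalized reads), C/EBPβ was called at 24 hpi in 25.2% (18.5% to 32.8%) of 155 low-C/EBPα bins, in 75.6% (71.8% to 79.0%) of 569 shared bins and in 54.5% of all 5016 C/EBPβ bins. The sets thus also differed at matched strength, without overlap of their intervals. This contrast is not independent of the choice, since C/EBPα was capped in the low-C/EBPα bins and required in the shared bins. Counting the bin together with the bin on either side raised the call at 24 hpi to 66.7% of the 189 bins and 99.1% of the shared bins, against 2.09% of all bins, and a minimum of 16 normalized reads lowered it to 16.4%, against 0.114%.

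Of the bins called at 0 or 24 hpi, 56 could be compared between these times, with a pseudocount of 1 normalized read. C/EBPβ was at least 2-fold higher at 24 hpi in 53 of them and 2-fold lower in 2. Of the 56 bins, 54 were called at 24 and not at 0 hpi, and 2 at 0 and not at 24 hpi. Each bin thus entered through the time at which it was called, so that this split largely describes the filter and is no measure of a rise. Over all 56586 bins called at either time, 42.0% were 2-fold higher and 43.9% 2-fold lower. Among shared bins called at either time, 88% were higher and 0.571% lower, and among all C/EBPβ bins 85.8% and 1.17%. The 2 bins called at 0 hpi, named here after their values were seen, lay near *0610009B22Rik* and *Myc*. Near *0610009B22Rik* the 5 libraries gave 11.7, 8.56, 6.89, 0 and 19.7 normalized reads, and near *Myc*, the gene of a growth-promoting factor, they gave 9.34, 0, 0, 0 and 19.7. Within 400 bp of the *Myc* bin C/EBPα reached 54.0.

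At the site with the most C/EBPβ at 48 hpi, 1.77 kb downstream of the TSS of *Lamp1*, in an intron, the 5 C/EBPβ libraries gave 2.33, 0, 3.44, 28.8 and 53.2 normalized reads. *Lamp1* encodes a major glycoprotein of the lysosomal membrane. The 8 C/EBPα libraries gave 0, 1.61, 1.54, 2.56, 3.59, 3.35, 3.95 and 1.26, and PU.1 gave 0, 3.04, 11.2, 7.05 and 8.60. C/EBPβ was thus high at 24 and 48 hpi alone, and C/EBPα stayed at or below 3.95 in the bins within 400 bp too.

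Near *Clec4d*, which encodes a C-type lectin receptor of macrophages and neutrophils, 2 bins were found. The bin 4.38 kb downstream of the TSS, in an intron, held 2.33, 3.42, 20.7, 19.2 and 49.3 normalized C/EBPβ reads, and that 7.03 kb upstream held 2.33, 3.42, 3.44, 9.60 and 25.6. Both contained the composite consensus and neither the C/EBP consensus. Around the upstream bin C/EBPα reached at most 2.64 within 400 bp, whereas around the downstream bin it reached 13.8.

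The remaining sites of the 10 strongest were spread over genes of unlike function. The bins near *Lphn3*, an adhesion receptor of neurons, and *D130052B06Rik* held 49.3 and 45.3 normalized C/EBPβ reads at 48 hpi. At 12 hpi each held 13.8, which is 4 raw reads, and at 24 hpi 6.40, too few reads to rank these times. Near *Invs*, which encodes a protein of the primary cilium, the series was 2.33, 3.42, 3.44, 3.20 and 45.3. Near *Thbs1*, the gene of the matrix glycoprotein thrombospondin, it was 0, 0, 0, 3.20 and 39.4. At 24 hpi both bins held 1 raw read. The sites were ranked by the value at 48 hpi, so that their higher level at that time describes the choice. The bins near *Rexo2*, an oligoribonuclease gene, and *Cdnf*, a neurotrophic factor gene, each stood at 16 at 24 hpi and reached 47.3 and 41.4. Those near *Popdc3* and *Cerkl* stood at 9.60 and 12.8 at 24 hpi and reached 37.4 and 35.5. The *Popdc3* bin touched another bin of the set, and with touching bins merged the 189 bins formed 188 sites.

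**Figure D2:**
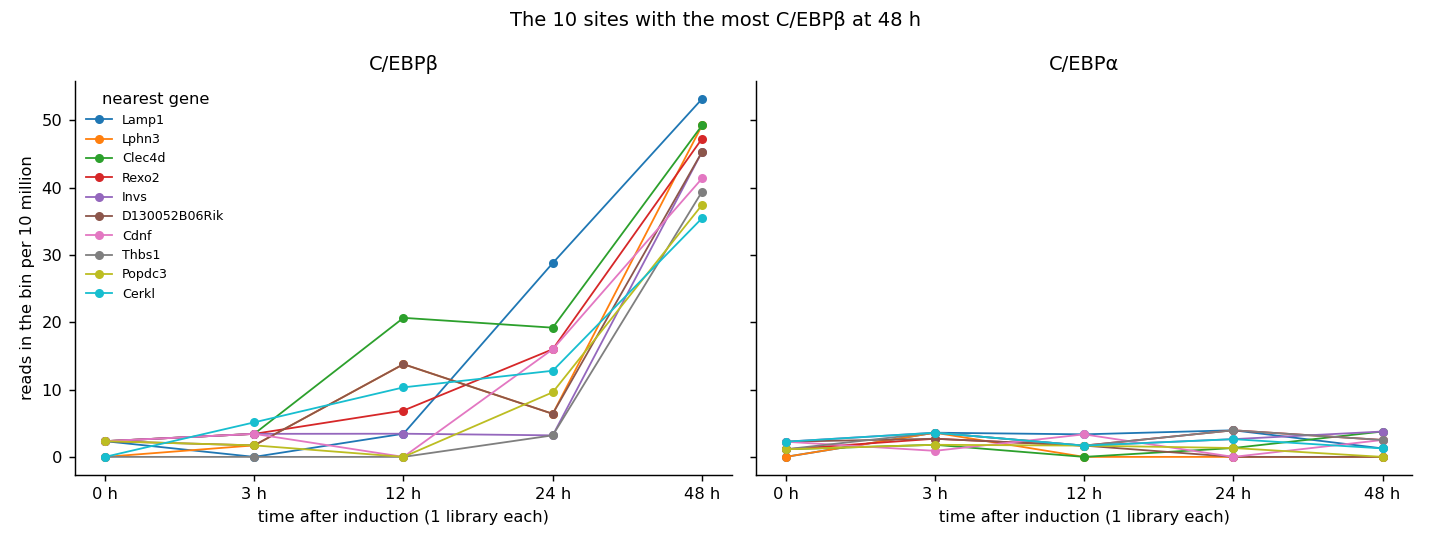
Normalized reads in the bin (reads of a library scaled to 10000000) by time at the 10 sites with the most C/EBPβ at 48 hpi, for C/EBPβ (left) and for C/EBPα at the same times (right), with 1 library per point and lines named by the gene with the nearest TSS. C/EBPβ reaches 35.5 to 53.2 at 48 hpi, and C/EBPα stays at or below 3.95, under the limit of 4 that the bins were chosen by.

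The bins with the most C/EBPβ at 24 hpi were mostly others. The bin 21.0 kb upstream of *Ezr*, which encodes the membrane-cytoskeleton linker ezrin, held 4.67, 5.13, 3.44, 38.4 and 29.6 normalized reads. Since these bins were picked as the highest at 24 hpi, their levels at 24 and 48 hpi cannot be set against each other. Those near *Aff3*, *Prkag2* and *Rad18* each held 25.6 at 24 hpi and 21.7 at 48 hpi. *Aff3* encodes a nuclear protein of lymphoid cells, *Prkag2* a subunit of the AMP-activated kinase and *Rad18* a ubiquitin ligase of DNA repair. C/EBPα within 400 bp reached 17.1 near *Ezr*, 16.7 near *Aff3*, 5.03 near *Rad18* and 137 near *Prkag2*, so that the bin near *Prkag2* lay beside a strong C/EBPα site.

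C/EBPα in the adjoining bins was therefore examined for all 189 bins. In 59 bins (31.2%) C/EBPα stayed at 4 or less in all 8 libraries over 400 bp on either side, and in 130 (68.8%) it exceeded 4 in at least 1 library. Within 1000 bp, 20 bins (10.6%, 6.58% to 15.9%) had a bin with 18 or more normalized C/EBPα reads at 48 hpi, and 30 (15.9%) had such a bin in at least 1 library. Neither the window of 400 bp nor that of 1000 bp was counted around all bins or the shared bins. Whether these shares are high or low therefore cannot be told. The mean of C/EBPα at 48 hpi was 2.20 in the bins themselves, 3.51 in the touching bins and 1.21 in bins 1200 to 2000 bp away. C/EBPα was thus higher beside the bins than in them, which the rule allows since it holds only the bin itself to the maximum.

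C/EBPβ itself did not always peak in the bin. In 128 bins (67.7%) no bin within 400 bp held more C/EBPβ reads at 48 hpi, and in 61 (32.3%) a neighbor did. Of the 128 bins, 2.34% had a C/EBPα bin within 1000 bp at 48 hpi, a share that was not counted around all bins or the shared bins. Both strands contributed 3 or more reads in 155 bins (82.0%), against 95.7% of the shared bins. In 2 bins, near *Neurog2* and *Cxadr* and named here after their values were seen, all 10 reads lay on the plus strand.

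**Figure D3:**
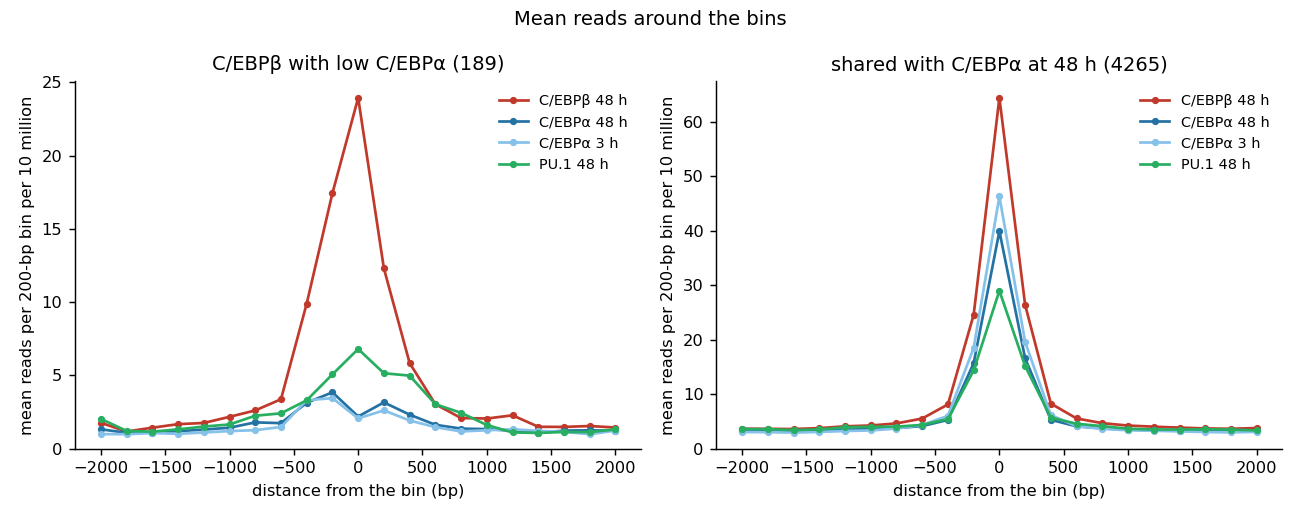
Mean normalized reads per 200-bp bin (reads of a library scaled to 10000000) by distance from the bin (bp), for the 189 bins (left) and the shared bins (right), in the libraries of C/EBPβ, C/EBPα and PU.1 at 48 hpi and of C/EBPα at 3 hpi; the vertical axes differ. At the 189 bins C/EBPα at 48 hpi dips to 2.20 between touching bins that average 3.51, and in the shared bins it peaks at the center, shapes that follow from the choice of the bins, which capped C/EBPα in the former and required it in the latter.

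The rule used no DNA sequence, but C/EBPα and C/EBPβ recognize the same consensus, so its share in bins chosen by their C/EBPα is not independent of the rule. The C/EBP consensus TTGCNNAA (reverse TTNNGCAA) occurred in 55 of the 189 bins (29.1%, 22.7% to 36.1%), against 9.28% of all bins of known sequence, 35.8% of all C/EBPβ bins at 48 hpi and 40% of the shared bins. The composite TGATGNAA (reverse TTNCATCA) occurred in 28 bins (14.8%, 10.1% to 20.7%), against 3.65% of all bins, 10.7% of all C/EBPβ bins and 9.75% (8.88% to 10.7%) of the shared bins. Both lay above the genome, and the interval of the composite overlapped with that of the shared bins. Either word was found in 81 bins (42.9%) against 12.6% of all bins and 46.8% of the shared bins, and both words in 2. The most frequent forms of the C/EBP word were TTGCACAA with 13 matches, TTGCTCAA with 10 and TTGCATAA with 7.

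At matched strength of 18 to 27 normalized C/EBPβ reads, the order of the C/EBP word between the sets turned, though the intervals overlapped. It occurred in 27.1% (20.3% to 34.8%) of the low-C/EBPα bins, 26.8% of all C/EBPβ bins and 20.6% (17.3% to 24.1%) of the shared bins. The composite occurred in 13.5% (8.59% to 20%), 9.63% and 5.62% (3.88% to 7.85%), so that its intervals in the low-C/EBPα bins and in the shared bins did not overlap. The sets were matched on strength alone. Over the full sets the median GC content was 43% in the 189 bins and 47.5% in the shared bins. The place of a bin in the local C/EBPβ signal was not matched either. Whether these account for the difference was not tested. Searching 100 bp beyond the bin on either side raised the C/EBP word to 43.9% of the 189 bins, 54.3% of the shared bins and 17.2% of all bins.

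The presence of the word went with the place of the bin. In the 59 bins with 4 or fewer C/EBPα reads over 400 bp the C/EBP word occurred in 31 (52.5%, 39.1% to 65.7%), and in the other 130 in 24 (18.5%, 12.2% to 26.2%). In the 128 bins that no neighbor exceeded in C/EBPβ it occurred in 53 (41.4%, 32.8% to 50.4%), and in the 61 others in 2 (3.28%, 0.40% to 11.3%). The composite occurred in 27 of the 128 bins (21.1%) and in 1 of the 61. The consensus words thus lay almost all in bins that held the local maximum of C/EBPβ, 53 of 55 for the C/EBP word and 27 of 28 for the composite. The 2 splits of the bins were not crossed. The difference by nearby C/EBPα therefore cannot be told apart from that by the local maximum.

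**Figure D4:**
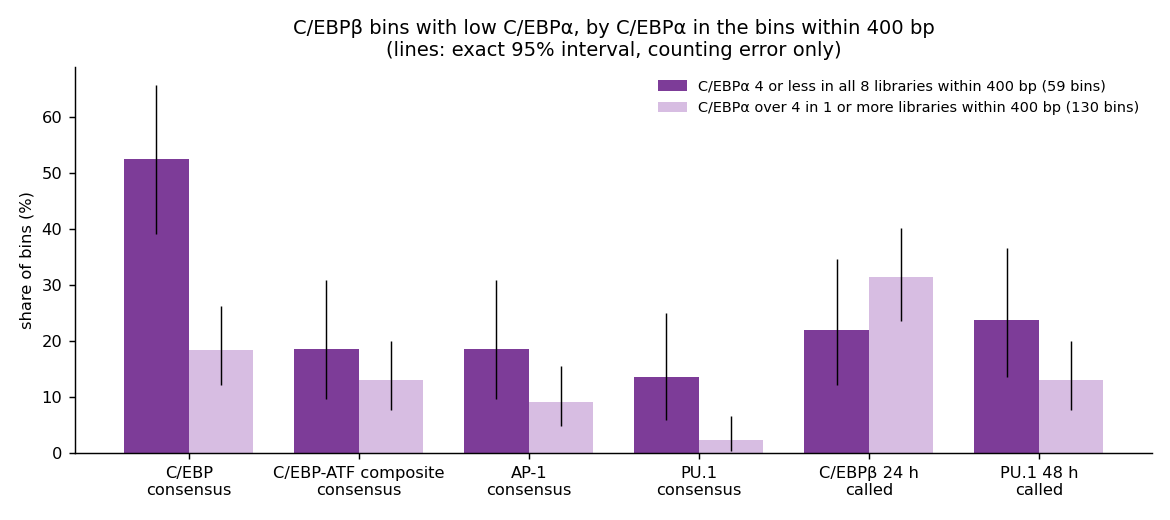
Share of bins (%) with each consensus and with each call, for the 59 bins with 4 or fewer normalized C/EBPα reads in all 8 libraries within 400 bp (dark) and the other 130 bins (light); lines are exact 95% intervals. The C/EBP consensus is found in 52.5% of the former and 18.5% of the latter, without overlap of the intervals, whereas the intervals of both calls overlap. This split was not crossed with that by the local maximum of C/EBPβ.

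The other words searched were those of factors known from macrophages or B cells. AP-1 (TGACTCA, reverse TGAGTCA) occurred in 23 bins (12.2%, 7.87% to 17.7%) against 3.14% of all bins and 11.8% of the shared bins. The PU.1 word (GAGGAAGT, reverse ACTTCCTC) occurred in 11 bins (5.82%, 2.94% to 10.2%) against 1.20% and 8.46%. RUNX (TGTGGTT, reverse AACCACA) occurred in 12 bins (6.35%) against 4.73% and 9.47%, and EBF1 (TCCCNNGGG, reverse CCCNNGGGA) in 4 (2.12%) against 1.87% and 4.62%, with intervals in the 189 bins that included the share of all bins. The words of AP-1 and PU.1 thus lay above the genome as in the shared bins, and those of RUNX and EBF1 were not distinguishable from it in so few bins. The E-box CAGGTG (reverse CACCTG) was found in 12.2% of the bins against 12.0% of all bins, and the NF-Y word CCAAT (reverse ATTGG) in 27.5% against 29.1%. The full cyclic AMP response element TGACGTCA occurred in 1 bin (0.529%, 0.013% to 2.91%), against 0.111% of all bins and 0.352% of the shared bins. That bin lay near *Akap13*, named here after its sequence was seen. In 95 bins (50.3%) none of the C/EBP, composite, cyclic AMP response and AP-1 words was found, against 84.5% of all bins. No match says only that these letters are not in the window.

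**Figure D5:**
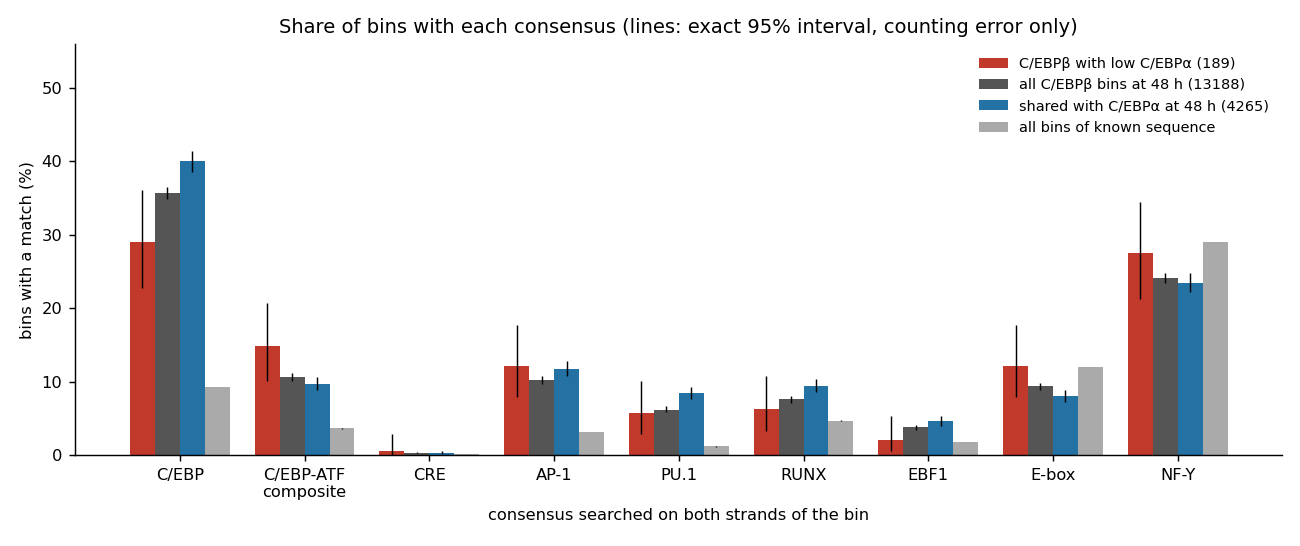
Share of bins (%) with a match to each of 9 consensus words on either strand, for the 189 bins (red), all C/EBPβ bins at 48 hpi (dark gray), the shared bins (blue) and all bins of known sequence (light gray); lines are exact 95% intervals. The composite is found in 14.8% of the 189 bins and 9.75% of the shared bins, the C/EBP consensus in 29.1% and 40%.

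PU.1, which the rule did not use, was called in fewer of the bins than of the shared bins, and in more of them at 48 hpi than before induction. It was called in 8 bins (4.23%) at 0 hpi against 0.598% of all bins, in 11 (5.82%) at 3 hpi against 0.667%, in 22 (11.6%) at 12 hpi against 0.901%, in 18 (9.52%) at 24 hpi against 0.599% and in 31 (16.4%, 11.4% to 22.5%) at 48 hpi against 0.596%. In the shared bins PU.1 was called in 40.7% at 0 hpi and 68.8% at 48 hpi. At matched strength the share at 48 hpi was 16.1% (10.7% to 22.9%) in the low-C/EBPα bins and 68.9% (64.9% to 72.7%) in the shared bins. The rule did not use PU.1, but contrasts with the shared bins, here and below, are not independent of the choice. C/EBPα was capped in the low-C/EBPα bins and required in the shared bins, and PU.1 occupies many of the same enhancers. PU.1 was called in none of its 5 libraries in 151 bins and in all 5 in 6 bins. With the bin on either side counted as well, 48.1% of the 189 bins were called at 48 hpi, against 2.70% of all bins, and with a minimum of 16 normalized reads 7.94%, against 0.267%.

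The mean of PU.1 over the bins was 3.29 normalized reads (2.99 to 3.62) at 0 hpi, 3.84 at 3 hpi, 5.09 at 12 hpi, 4.21 at 24 hpi and 6.80 (6.45 to 7.18) at 48 hpi. The log2 ratio of 48 over 0 hpi was 1.05 (0.89 to 1.21), against 0.61 (0.59 to 0.62) in the shared bins. The means rested on few bins: the 5 bins with the most PU.1 over its libraries held 53.3% of the reads at 0 hpi and 35.0% at 48 hpi, and without them the ratio was 1.52 (1.30 to 1.75). The median over the bins went from 1.42 to 2.87 normalized reads. Of the 32 bins called at 0 or 48 hpi, 25 were at least 2-fold higher at 48 hpi and 0 were 2-fold lower. Called at 48 and not at 0 hpi were 24 of the 32, at both times 7 and at 0 and not at 48 hpi 1. Most thus entered through the time at which they were high, so that this split largely describes the filter. Over all 105634 bins called at either time, 27.7% were higher and 23.8% lower. Among shared bins called at either time, 53.6% were higher and 2.81% lower, and among all C/EBPβ bins 52.3% and 3.94%.

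The 5 bins with the most PU.1 at 48 hpi had PU.1 before induction too, and 4 of them held 10 raw C/EBPβ reads at 48 hpi, the fewest that passed, and the bin near *Vps13b* 11. Near *B3gnt5*, a glycosyltransferase gene, PU.1 gave 113, 71.5, 85.9, 52.0 and 166 normalized reads over the 5 times and C/EBPβ 2.33, 1.71, 0, 9.60 and 19.7. Near *Slc4a7*, a bicarbonate transporter gene, PU.1 gave 82.2, 119, 115, 84.6 and 91.7, and near *Dcakd* 101, 131, 88.7, 57.3 and 87.9. These 3 bins thus carried PU.1 at every time, and C/EBPα within 400 bp reached at most 3.95 near *B3gnt5* and *Slc4a7* and 13.4 near *Dcakd*. Near *Laptm5*, a lysosomal membrane protein gene of blood cells, PU.1 gave 21.3, 18.3, 42.9, 38.8 and 55.4, and near *Vps13b* 14.2, 30.4, 44.8, 33.5 and 48.7. Both lay higher at 12, 24 and 48 hpi than at 0 and 3 hpi. The 5 bins were ranked by PU.1 at 48 hpi, so that their level at that time describes the choice. The PU.1 word was present in the bins near *B3gnt5* and *Slc4a7* and absent from the other 3.

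Over the 2 factors, 15 bins (7.94%) had both C/EBPβ at 0, 3, 12 or 24 hpi and PU.1 in any library. Neither was called in 98 bins (51.9%). These 2 shares were not counted in the other sets. PU.1 was called in any library in 20.11% of the 189 bins, 80.28% of the shared bins and 58.89% of all C/EBPβ bins. C/EBPβ was called at 0, 3, 12 or 24 hpi in 35.98%, 96.95% and 84.58% of these sets. The shares over any library were not counted over all bins. PU.1 at 48 hpi was called in 9 of the 54 bins with C/EBPβ at 24 hpi (16.7%) and in 22 of the other 135 (16.3%).

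By position, 103 of the 189 bins (54.5%, 47.1% to 61.7%) were intergenic against 59.7% of all bins of known sequence, and 75 (39.7%, 32.7% to 47.0%) intronic against 35.7%. Within 1000 bp of the TSS of a protein-coding gene lay 10 (5.29%, 2.57% to 9.51%). In a UTR lay 1 bin (0.529%), against 1.05% of all bins. The nearest TSS to that bin, that of *Ccdc56*, named here after the position was seen, lies 8.07 kb away. In coding sequence lay 0 bins, with an exact interval that reached 1.93% and included the 1.17% of all bins. Among all bins of known sequence 2.36% lay within 1000 bp of a TSS, and among the shared bins 11.3% (10.3% to 12.2%). The median distance to a TSS was 22134 bp, against 16119 bp for the shared bins and 54350 bp for all bins. The median GC content was 43.0%, against 47.5% in the shared bins and 42.0% in all bins, and 0.529% of the bins held 10 or more CpG dinucleotides, against 5.16% of the shared bins and 1.03% of all bins. The median distance to a TSS and GC content of the 189 bins thus lay between those of the shared bins and of all bins. The 36-base words that start in a bin were found once in the genome for 90% or more of positions in 175 bins (92.6%) and in 94.3% of the shared bins. A bin near *Selenbp1*, named here after its value was seen, fell below 50%.

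The nearest genes numbered 184, and 4 were nearest to more than 1 bin. These were *Clec4d*, *Popdc3*, *Slc4a7* and *Myc*, named here after the counts were seen, with 3 bins at *Myc* that lay 25.3, 165 and 430 kb downstream of its TSS. Of 8 gene lists that bear on these cells, macrophage receptors and surface genes had 2 of 30 genes nearest to a bin (*Clec4d* and *Mrc1*), against 184 of 21275 protein-coding genes (0.865%). Inflammatory cytokines and chemokines had 1 of 29 (*Csf3*), liver, fat and acute-phase genes 1 of 30 (*Orm2*), granule and protease genes 1 of 28 (*Lamp1*), and myeloid and progenitor transcription factors 1 of 35 (*Zeb2*). None of 30 integrated stress response genes and none of 31 genes of B-lineage factors and the pre-B cell receptor were nearest to a bin. All C/EBPβ bins together were nearest to between 10 of 30 genes of a list (33.3%, liver, fat and acute-phase genes) and 28 of 30 (93.3%, macrophage receptors), against 5125 of the 21275 protein-coding genes (24.1%).

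Besides those near *Lamp1* and *Clec4d*, the bins near genes of the lists held 10 to 12 raw C/EBPβ reads at 48 hpi. Near *Mrc1*, the macrophage mannose receptor gene, the C/EBPβ libraries gave 4.67, 3.42, 3.44, 3.20 and 23.6 normalized reads, and the bin, 12.5 kb upstream of the TSS, held the C/EBP consensus. Near *Zeb2*, a zinc-finger factor gene, the bin lay 200 kb upstream and C/EBPβ gave 4.67, 1.71, 0, 9.60 and 23.6. Near *Csf3*, which encodes the granulocyte colony-stimulating factor, it gave 2.33, 1.71, 6.89, 9.60 and 23.6, and C/EBPα within 400 bp reached 10.1. The bin near *Orm2*, an acute-phase protein gene, held 19.7 at 48 hpi, stood beside C/EBPα of 31.8 and had 73.0% of its 36-base words found once in the genome.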

How the data were processed

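C10 cells were profiled by ChIP-seq for C/EBPα, C/EBPβ and PU.1. Build mm9 was the reference. The authors used ELAND or Bowtie (versions and which library had which not given in the sources used here) and accepted only perfect, single-place matches, with duplicates taken out, per their methods. They deposited 1 line per read with its position and strand, so that a count of lines is a raw read count without normalization. The libraries held 2903580 to 24917810 reads. Read length was 36 bases in the PU.1 libraries, 40 in those of C/EBPβ, and in those of C/EBPα 50 at 10, 30 and 60 min (HiSeq2000) and 36 otherwise (GA IIx).

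The deposited C/EBPα libraries of 36 bases still held duplicates, so 1 read was kept per position and strand (2.51% were removed from C/EBPα at 3 hpi, at most 0.188% elsewhere), 5′ ends were moved 75 bp inward, and reads were counted in 200-bp bins of chromosomes 1 to 19 and scaled to 10000000 reads (normalized reads). The distance between the strands was 86 to 118 bp for C/EBPβ, 100 to 177 bp for C/EBPα and 238 to 256 bp for PU.1, so that 75 bp moves PU.1 reads short of their center. Sequence and genes were those of NCBIM37 (mm9) and GENCODE vM1 (protein-coding), and a bin was placed by its center. Coordinates count from 1. The search for consensus words and the counting rule were tested on simulated data. Python 3.11.15, numpy 2.4.6, numba 0.67.0 and scipy 1.17.1 were used.

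Named are the 10 sites with the most C/EBPβ at 48 hpi, the 5 bins with the most at 24 hpi, the 5 with the most PU.1 at 48 hpi, and the bins nearest to genes of the lists, of which 1 is not reported here. The bins and gene lists were chosen with earlier results of these data known. Alternatives concerned the reads kept, bin grid, shift, C/EBPβ minimum, C/EBPα maximum, its window and libraries, strands, sequence uniqueness, call windows and scaling.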

Additional observations from a re-analysis of the deposited data

Results flagged for a closer look

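On chromosome X, which the rule leaves out, the same counts gave 6 bins with C/EBPβ at 48 hpi and no more than 4 normalized C/EBPα reads in the 8 libraries. They made up 2.06% (0.76% to 4.43%) of the 291 C/EBPβ bins of that chromosome, against 1.43% on chromosomes 1 to 19, and were pointed out because they are a signal in data that no comparison used.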

How the results depend on the processing

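Of 79 values under alternatives, 49 stayed within the exact 95% interval of the reported value or, for the number of bins, within 1.5-fold of 189, and the log2 ratio of PU.1 was above 0 under each alternative. The share with the C/EBP consensus, below that of the shared bins as reported (40%), was above it with the C/EBPα maximum over 400 bp and in bins that no neighbor exceeded, limits not applied to the shared bins, and at 18 to 27 normalized reads it was 27.1% against 20.6%. Among the alternatives chosen with the design, a C/EBPβ minimum of 27 normalized reads left 34 bins, with the C/EBP consensus in 38.2%, C/EBPβ at 24 hpi in 44.1%, a C/EBPα bin within 1000 bp in 2.94%, a TSS within 1000 bp in 0% and a log2 ratio of PU.1 of 1.95. A C/EBPα maximum of 2 left 8 bins, with 12.5% for C/EBPβ at 24 hpi, 25% for PU.1 at 48 hpi, 1.24 for the log2 ratio and 0% for both distances. The maximum applied over 400 bp left 59 bins, with 52.5% for the consensus, 22.0% for C/EBPβ at 24 hpi, 23.7% for PU.1 at 48 hpi, 1.69% for a C/EBPα bin and 0% for a TSS. Bins that start 100 bp later gave 38.3% for the consensus and a log2 ratio of 1.37, reads moved 100 bp gave a ratio of 1.25, and the 5 C/EBPα libraries of the GA IIx gave 0.85. A search 100 bp beyond the bin gave 43.9% for the consensus. Calls over 3 bins gave 66.7% for C/EBPβ at 24 hpi and 48.1% for PU.1 at 48 hpi, and a minimum of 16 gave 16.4% and 7.94%. Among alternatives chosen after seeing the data, bins that no neighbor exceeded gave 41.4% for the consensus and 2.34% for a C/EBPα bin, and leaving out the 5 bins with the most PU.1 gave a log2 ratio of 1.52. The causes of these shifts were not tested. The stricter C/EBPβ and C/EBPα limits also left fewer bins. With all reads as deposited, 3 reads on each strand or 36-base words unique in 9 of 10 positions, the number of bins stayed within 1.5-fold and the other 6 results in their intervals. No paired analysis was possible because each factor and time point has 1 library. At 10 raw reads a bin, single bins cannot be told apart by level, and the C/EBPα maximum allows 2 to 9 raw reads by library.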

Other observations

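The 10 bins within 1000 bp of a TSS, named after their positions were seen, lay near *Dido1*, *Gbp2*, *Nfia*, *Tlr1*, *Klra2*, *2610008E11Rik*, *Znrf3*, *Dcakd*, *Cpsf3* and *Sf3b2*. Among them were an interferon-induced GTPase gene (*Gbp2*) and a Toll-like receptor gene (*Tlr1*). The *Gbp2* bin, 466 bp upstream of the TSS, held 0, 3.42, 3.44, 16 and 21.7 normalized C/EBPβ reads at 0, 3, 12, 24 and 48 hpi, and C/EBPα within 400 bp reached 56.8. The *Tlr1* bin, 900 bp upstream, held 2.33, 0, 13.8, 6.40 and 21.7, and C/EBPα within 400 bp reached 4.49.

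By chromosome, the number of bins ran from 2 on chromosome 19 to 25 on chromosome 2, which is 0.501% and 2.04% of the C/EBPβ bins there. The highest share was 2.63% on chromosome 12, with 12 bins.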
